A study of Mus musculus with 17 samples.

Results

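Bone matrix genes were followed in mouse prostate and prostate tumours as a set of 8 genes taken by symbol or identifier: Spp1, Ibsp, Dmp1, Runx2, Sp7, Alpl, Bglap and Mgp. The files of wild-type prostate and of the 2 tumour groups described with it list 4 of the 8 (Spp1, Runx2, Alpl and Mgp) among 15195 features, and the files of an inducible tumour model list all 8 among 42847 features. Ibsp, Dmp1, Sp7 and Bglap are therefore described in the inducible model only. Of the 13905 genes kept from the first set of files none had a mean below 15.6. Absence from that list therefore does not show whether a gene was expressed. The 8 genes were chosen by their measured levels across tumour groups and under androgen deprivation, the values described here, and so their own changes are given without a p and their calls only as counts beside the share of all genes called.

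Mineralised bone is laid down by osteoblasts, which need the transcription factors Runx2 and Sp7 (osterix) in that order. Osteoblasts secrete acidic proteins that bind mineral and integrins, and they carry a membrane phosphatase, Alpl, that removes pyrophosphate, a blocker of mineral growth. Osteopontin (Spp1), bone sialoprotein (Ibsp) and dentin matrix protein (Dmp1) belong to 1 family of such acidic proteins, whereas osteocalcin (Bglap) and matrix Gla protein (Mgp) carry vitamin K-dependent Gla residues. Osteopontin is also made by macrophages and by many carcinomas, and Mgp, an inhibitor of calcification, is made by vascular and fibroblastic cells.

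All mice were C57BL/6. Wild-type prostate (12 months of age), prostate tumours with 1 Ctnnb1 allele lacking exon 3 (12 months, here the Ctnnb1 group) and a combined group, in which another gene was engineered as well as Ctnnb1 (6 to 8 months), had 3 libraries each. The loss of exon 3 leaves a stable beta-catenin, and the labels mark these alleles with "pc", which they do not spell out. An inducible model of the combined genotype, made with CreERT2, a Cre recombinase that acts once tamoxifen is given, had 2 mock-treated libraries and 3 libraries under androgen deprivation (ADT), all at 15 months. The mock-treated controls thus carry the same engineered alleles as the ADT group. The labels do not say that each library came from a separate animal, so the spread between libraries may be technical in part. Age differs between the combined group and wild type, so age and genotype cannot be told apart there.

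The values are read counts per gene that the authors had scaled per library and rounded, called scaled values below, and they do not give the sequencing depth. The inducible files were scaled on their own, and mock and ADT libraries were compared only with each other. Luminal epithelial markers of the prostate were present but shifted. Their 8 values summed to 476553 to 658305 in wild type, 125214 to 155219 in Ctnnb1 and 139330 to 166461 in combined tumours. Most of that drop was Pbsn, the androgen-dependent probasin, which averaged 453100 in wild type against 27140 and 17940. Hoxb13, Tmprss2 and Epcam also fell in both comparisons, whereas the keratin genes Krt8 and Krt19 rose in both. Markers of osteocytes, the cells embedded in bone, were low in the inducible model. Of 4 such genes, Mepe was listed at 0 in all 5 libraries of the inducible model, Phex lay between 1 and 8, Sost between 0 and 20 and Dmp1 between 6 and 61. Dmp1 is itself 1 of the 8 genes, and Sost stood at 330, 158 and 268 in wild-type prostate. These levels therefore do not settle which cells were present.

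The family of acidic bone proteins lies in 1 stretch of chromosome 5 (GRCm38, GENCODE M21 gene models), read on the plus strand in the order Dspp (chr5:104170712-104180127), Dmp1 (chr5:104202613-104214102), Ibsp (chr5:104299171-104311469), Mepe (chr5:104325329-104338611) and Spp1 (chr5:104435118-104441050). Runx2 (chr17:44495987-44814797), Sp7 (chr15:102356606-102367182), Alpl (chr4:137741733-137796384), Bglap (chr3:88383501-88384464) and Mgp (chr6:136872435-136875823) lie elsewhere, all on the minus strand. The gene models of Runx2 overlap Supt3 and 3 antisense transcripts on the other strand. Whether the authors' counting used strand is not given in the sources used here, so reads of these could not be separated from those of Runx2. Bglap lies beside the near-identical copies Bglap2 and Bglap3, among which reads can be divided, and its values are uncertain for that reason.

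The 250 bases before the start of 4 of the genes are shown because Runx2, a factor of the set, binds the core TGTGGT, whose reverse reads ACCACA, and because the genes themselves differ in whether that core is present. Sequences are from RefSeq on GRCm38.p6, written in the direction of transcription, and capitals mark each match on either strand to TGTGGT (RUNX core), CTTTGAA or CTTTGAT (TCF/LEF, the partners of beta-catenin) or TGACTCA (AP-1). The windows are chr5:104434861-104435110 for Spp1, chr3:88384467-88384716 for Bglap, chr17:44814628-44814877 for Runx2 and chr5:104299037-104299286 for Ibsp, with Bglap and Runx2 on the minus strand. RefSeq starts can differ from those of the gene models above, and the first of the 2 Spp1 windows in the table is shown.
Spp1: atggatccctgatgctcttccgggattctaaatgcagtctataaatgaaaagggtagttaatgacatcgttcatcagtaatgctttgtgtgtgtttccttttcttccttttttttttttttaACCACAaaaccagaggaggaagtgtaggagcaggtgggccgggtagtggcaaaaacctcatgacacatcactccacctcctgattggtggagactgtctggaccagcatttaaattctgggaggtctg
Bglap: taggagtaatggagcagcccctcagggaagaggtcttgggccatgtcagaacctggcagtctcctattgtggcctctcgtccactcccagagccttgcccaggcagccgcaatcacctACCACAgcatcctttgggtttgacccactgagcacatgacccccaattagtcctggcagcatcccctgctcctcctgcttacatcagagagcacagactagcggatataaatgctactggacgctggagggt
Runx2: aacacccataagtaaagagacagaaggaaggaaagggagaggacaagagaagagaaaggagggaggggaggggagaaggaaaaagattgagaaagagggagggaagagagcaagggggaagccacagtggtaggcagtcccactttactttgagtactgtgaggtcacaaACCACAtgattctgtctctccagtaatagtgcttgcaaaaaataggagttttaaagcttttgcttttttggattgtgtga
Ibsp: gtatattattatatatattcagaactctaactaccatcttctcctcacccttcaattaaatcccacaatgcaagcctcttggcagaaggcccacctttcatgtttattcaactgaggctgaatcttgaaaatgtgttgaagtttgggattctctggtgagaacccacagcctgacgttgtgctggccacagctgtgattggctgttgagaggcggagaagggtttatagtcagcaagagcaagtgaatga
The RUNX core began 128 bases before the start in Spp1, 132 in Bglap and 80 in Runx2, each read as ACCACA. Of 32841 RefSeq promoter windows of this length 14.0% held that core, 7.48% a TCF/LEF match and 4.46% an AP-1 match. The Ibsp window, both Alpl windows and the second Spp1 window held none of these motifs, and of the 2 windows of Dmp1 1 held a RUNX core. A match of letters describes the window and says nothing of binding. Of the 8 genes 6 matched the promoter table, and Sp7 and Mgp did not.

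Osteopontin was low in wild-type prostate and far higher in every tumour library. Wild-type libraries held Spp1 at 46, 27 and 29. Its level reached 2457, 771 and 7255 in Ctnnb1 tumours (replicates 13, 14 and 15) and 12052, 20923 and 3542 in combined tumours (replicates 10, 11 and 12). The lowest tumour library was thus many times above the highest wild-type library, and the tumour libraries of 1 group differed among themselves by more than 5-fold. Ctnnb1 replicate 15 lay above combined replicate 12, so the levels of the tumour groups overlapped. On the scale of log2(value + 1), on which all changes are given, Spp1 was higher by 6.14 (SE 0.85) in the Ctnnb1 group and by 8.14 (SE 0.85) in the combined group. Without any 1 of the 6 libraries compared these values ran from 5.34 to 6.95 and from 7.58 to 8.87.

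Runx2, the earliest factor of the osteoblast lineage, was also higher in tumours. Wild-type libraries held it at 227, 114 and 105, Ctnnb1 tumours at 410, 308 and 397, combined tumours at 591, 698 and 709. The 3 groups did not overlap. Wild-type replicate 1 lay well above the other 2 wild-type libraries. The change was 1.40 (SE 0.28) in the Ctnnb1 group and 2.24 (SE 0.28) in the combined group.

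Alpl, the phosphatase of mineralising cells, went the other way. Wild-type prostate held 699, 749 and 706, against 182, 69 and 116 for Ctnnb1 tumours. Combined tumours held 536, 182 and 99. Every tumour library was below every wild-type library, and combined replicate 10 came closest. The change was -2.65 (SE 0.58) and -1.75 (SE 0.58). Without any 1 of the 6 libraries compared the second value ran from -2.41 (without combined replicate 10) to -1.20 (without combined replicate 12).

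Mgp, the inhibitor of calcification, was at 3660, 3037 and 3116 in wild-type prostate. Ctnnb1 tumours held 1911, 1433 and 1734, and combined tumours 7985, 8771 and 2713. It was therefore lower in all Ctnnb1 libraries, whereas in the combined group replicates 10 and 11 lay above wild type and replicate 12 lay below it. The changes were -0.96 and 0.82 (SE 0.39 each). With libraries scaled to equal totals they were -0.46 and 1.33 (SE 0.39 each), and without combined replicate 12 the second was 1.36 (SE 0.13).

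**Figure D1:**
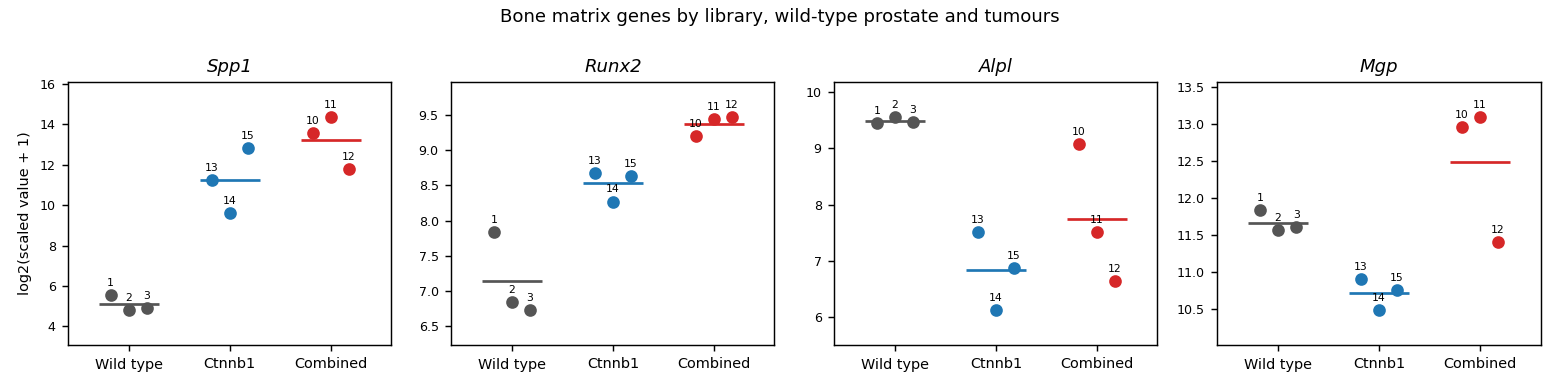
Values of Spp1, Runx2, Alpl and Mgp in each library, as log2(scaled value + 1) on the vertical axis, for wild-type prostate, the Ctnnb1 group and the combined group (n = 3 each). Points are libraries with their replicate numbers, lines are group means. All tumour points lie above wild type for Spp1 and Runx2 and below it for Alpl, and combined replicate 12 stands apart from 10 and 11 for Mgp.

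In the Ctnnb1 comparison limma called 3 of the 4 listed genes (58.5% of all 13905 genes). Of these 2 were called higher (28.9% of all genes) and 1 lower (29.6%). The groups did not overlap for 4 of 4 (71.5% of all genes), of which 2 were higher (35.9%) and 2 lower (35.6%). In the combined comparison limma called 3 of 4 (57.8% of all genes), 2 higher (28.3%) and 1 lower (29.5%). There the groups did not overlap for 3 of 4 (66.1%), 2 higher (32.1%) and 1 lower (34%). Without 1 library the count of calls stayed at 3 in the Ctnnb1 comparison and ran from 2 to 3 in the combined comparison. Under the other settings it ran from 3 to 4 in the Ctnnb1 comparison and stayed at 3 in the combined comparison. The genes called were not always the same, and with equal totals the combined comparison had 3 called higher and 0 lower. At an unadjusted p under 0.05 stood 4 of 4 and 3 of 4, where 63.6% and 63% of all genes did. The 2 comparisons share all wild-type libraries. Because these contrasts were in view when the genes were proposed, nothing is read from the counts.

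Levels of different genes were compared per kilobase of exon. In wild-type prostate Mgp led at 2560 to 3080 scaled reads per kilobase, followed by Alpl at 173 to 186, while Spp1 at 16.4 to 27.9 and Runx2 at 11.9 to 25.7 overlapped. In the Ctnnb1 group Spp1 at 468 to 4400 overlapped Mgp at 1210 to 1610, and Runx2 at 34.9 to 46.4 overlapped Alpl at 17.1 to 45.1. In the combined group Spp1 at 2150 to 12700 again overlapped Mgp at 2290 to 7390. The order of wild-type prostate, with Alpl well above Spp1, was thus turned round in both tumour groups.

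Genes with the pattern most like a given gene were sought over the same 9 libraries, by the root-mean-square difference of log2 values after each gene was centred on its own mean. For Spp1 the 5 nearest were Olr1 (0.905), C86695 (0.905), Lrrc15 (0.968), Col10a1 (0.971) and Tnip3 (1.03), where the median over all genes was 3.62. These 5 lay between 0 and 8 in wild type, near the floor. Their differences from Spp1 were larger than those of the nearest genes of Mgp, Runx2 and Alpl. Lrrc15, for one, stood at 1, 1 and 3 in wild type. Ctnnb1 tumours held it at 208, 30 and 83, combined tumours at 475, 530 and 124. For Mgp the nearest were Itga9 (0.132), Chsy1 (0.153) and Fkbp7 (0.178) with a median of 0.961. Runx2 was nearest to Rrm2 (0.226), Bhlhe40 (0.228) and Mdfi (0.249), and Alpl to Artn (0.362), Fry (0.372) and Twist2 (0.378).

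The summed values of macrophage markers and of T cell markers rose in both tumour groups, and those of fibroblast and of smooth muscle markers did not rise in both. The summed value of 12 macrophage markers was 5683 to 6162 in wild type, against 11499 to 23435 for Ctnnb1 and 16495 to 56559 for combined tumours. Within each tumour group the libraries fell in the same order for Spp1 and for this sum. So few libraries share an order easily, and in the combined group the fibroblast, smooth muscle and endothelial sums had that order too. In the inducible model the macrophage sum was 44526 in ADT replicate 1 and 44279 in ADT replicate 2, where Spp1 was at 2442 and 18612. The markers in that sum did not move alike between these libraries. Gpnmb was at 16589 and 9875, and Lyz2 at 11985 and 16689. limma called 9 of the 12 higher in the Ctnnb1 and 11 of the 12 in the combined comparison, and none of the 12 was at 0 in any library. The sum of 8 fibroblast markers was 27550 to 31663 in wild type and 12901 to 20093 in Ctnnb1 tumours. In combined tumours it was 147542, 239069 and 24365, the last being replicate 12. In the Ctnnb1 comparison limma called 2 of the 8 lower and 0 higher, and 6 were not called. Among those called lower, Dcn averaged 3843 against 12330 in wild type. In the combined comparison 5 were called higher and 0 lower. Smooth muscle and pericyte markers summed to 131396 to 165614 in wild type against 4618 to 6095 and 9069 to 29270 in the tumour groups. Of these 8 limma called 5 lower in each comparison. Rgs5, a pericyte marker, was called higher in both (changes 1.04 and 2.09), and Pdgfrb and Notch3 in the combined group. Over all genes 28.9% were called higher and 29.6% lower in the Ctnnb1 comparison, and 28.3% and 29.5% in the combined comparison. The part of these cell types in the values of Spp1, Alpl and Mgp was not tested, and in whole tissue fewer cells of a type and less RNA per cell cannot be told apart.

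**Figure D2:**
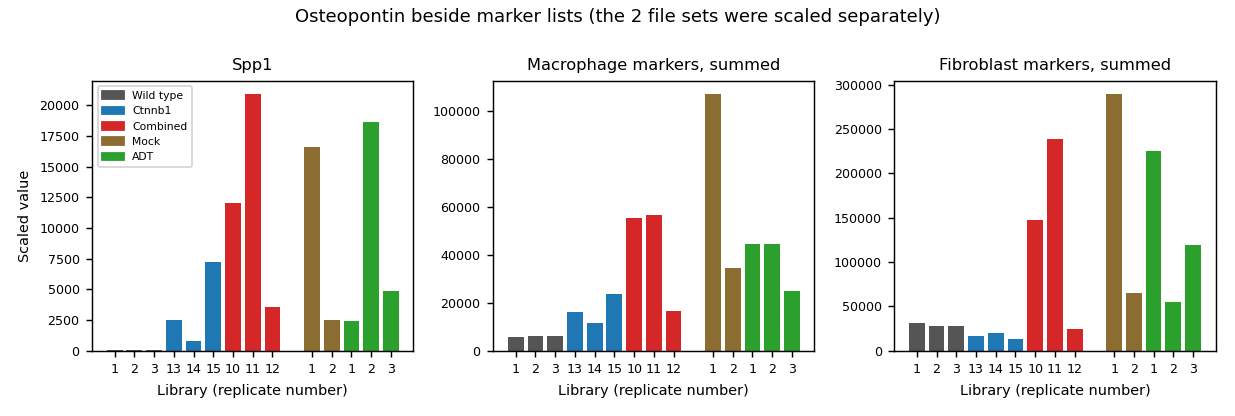
Scaled values of Spp1 and the summed scaled values of 12 macrophage and 8 fibroblast markers (vertical axes, starting at 0) in each library, named by replicate number on the horizontal axis and coloured by group. The first 9 bars and the last 5 come from separately scaled files. In the first 9 libraries combined replicates 10 and 11 are highest in all 3 panels, and in the inducible model ADT replicate 2 is highest for Spp1 but not for either sum.

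Receptors through which osteopontin and bone sialoprotein act were examined next, as a fixed list of 11 genes. Counts of called genes in this and the following lists stand against all genes tested, of which 28.9% were called higher and 29.6% lower in the Ctnnb1 comparison and 28.3% and 29.5% in the combined comparison, and shares near these are no result about a list. In the Ctnnb1 group 4 rose and 2 fell (median change 0.21, all genes 0.00), and in the combined group 6 rose and 0 fell (median 0.69, all genes -0.01). Cd44, a receptor for hyaluronan and osteopontin, averaged 11340 ± 1852 and 14200 ± 3122 in the tumour groups against 931 ± 236 in wild type (SD, n = 3 each; changes 3.62 and 3.94, limma adjusted p 1.41e-05 and 1.24e-05). Itgav, the alpha-v integrin chain that recognises the RGD sequence of osteopontin, rose by 0.52 (SE 0.10) and 0.79 (SE 0.10; limma adjusted p 0.00236 and 2.99e-04). Its partner Itgb6 rose in the combined group (3.23, SE 0.63, limma adjusted p 0.00269), with 1.55 (SE 0.63) in the Ctnnb1 group, which was not called. Itga8 fell in the Ctnnb1 group (-3.12, SE 0.54, limma adjusted p 0.00156), with -1.32 (SE 0.54) in the combined group, which was not called. The difference between the tumour groups was not tested. Of 6 listed enzymes that cut or cross-link osteopontin, 2 rose and 2 fell in the Ctnnb1 group, near the shares over all genes, and 3 rose and 1 fell in the combined group. The stromelysin gene Mmp3 rose in both (4.33, SE 0.93, and 6.50, SE 0.93, limma adjusted p 0.00434 and 5.68e-04).

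Other osteoblast transcription factors had 6 of 10 listed genes higher and 2 lower in each comparison (medians 0.87 and 1.01), where 28.9% and 28.3% of all genes were called higher. Runx1, a relative of Runx2 known from blood cells and epithelia, rose by 2.44 (SE 0.17) and 2.75 (SE 0.17; limma adjusted p 2.72e-05 and 1.73e-05). The homeobox gene Msx2 rose by 2.70 and 3.32 (SE 0.45 each), Runx3 rose by 1.13 and 2.13 (SE 0.39 each), and Atf4 fell by 0.91 and 0.99 (SE 0.12 each; limma adjusted p 3.25e-04 and 2.19e-04). Msx1, another homeobox gene of the list, was lower in both (changes -3.00 and -1.48, SE 0.42 each). Sp7 was not listed for these libraries.

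Of 12 listed genes that handle phosphate and pyrophosphate, the substrate of Alpl, 4 rose and 6 fell in the Ctnnb1 group and 5 rose and 4 fell in the combined group. Enpp1, which makes pyrophosphate, rose by 1.56 and 1.82 (SE 0.19 each; limma adjusted p 2.58e-04 and 1.19e-04). Ank, which exports it, fell by 2.77 and 2.60 (SE 0.35 each; limma adjusted p 3.09e-04 and 4.13e-04). Vkorc1, which recycles the vitamin K that the Gla proteins need, fell by 0.93 and 1.07 (SE 0.16 each).

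Of 13 other bone matrix genes listed, 0 rose and 3 fell in the Ctnnb1 group by limma, with 3 at an unadjusted p under 0.05, whereas 8 rose and 2 fell in the combined group (medians -0.44 and 2.25). The genes that rose include those of fibroblast matrix, such as Col1a1, which averaged 85150 ± 84060 against 4189 ± 425 (SD, n = 3 each; 3.52, SE 0.90, limma adjusted p 0.00996). Fitted with wild type alone, the Ctnnb1 group gave 8 calls in place of 3. The osteocalcin copy Bglap3 stood at 3968, 2889 and 3287 in wild type. Ctnnb1 tumours held it at 38, 12 and 115, combined tumours at 155, 34 and 244. Its change was -6.43 and -4.93 (SE 0.88 each; limma adjusted p 4.55e-04 and 0.00171). Sost, the Wnt inhibitor sclerostin of osteocytes, was at 330, 158 and 268 in wild type and at 0 or 1 in all 6 tumour libraries. Of 8 listed cartilage genes 4 rose and 2 fell in each comparison. Col10a1, a collagen of hypertrophic cartilage, rose by 4.70 and 7.51 (SE 0.57 each; limma adjusted p 2.61e-04 and 3.11e-05), and Cytl1, a secreted protein of cartilage, fell by 5.40 and 3.52 (SE 0.61 each). Of 7 osteoclast-related genes 1 rose and 2 fell in the Ctnnb1 group, and 2 rose and 0 fell in the combined group. Tnfrsf11b, the decoy receptor osteoprotegerin that restrains osteoclasts, rose by 4.31 and 5.37 (SE 0.68 each; limma adjusted p 9.45e-04 and 3.12e-04). In the Ctnnb1 group Tnfrsf11a, the receptor RANK, fell by 1.12 (SE 0.29, limma adjusted p 0.00988) and Acp5, the acid phosphatase of osteoclasts, by 1.43 (SE 0.51, limma adjusted p 0.0412), and neither call held with equal totals. Ctsk, the collagen-cutting protease of osteoclasts, was the other gene called higher in the combined group (1.91, SE 0.69, limma adjusted p 0.0430), a call lost without any 1 library except replicate 12.

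**Figure D3:**
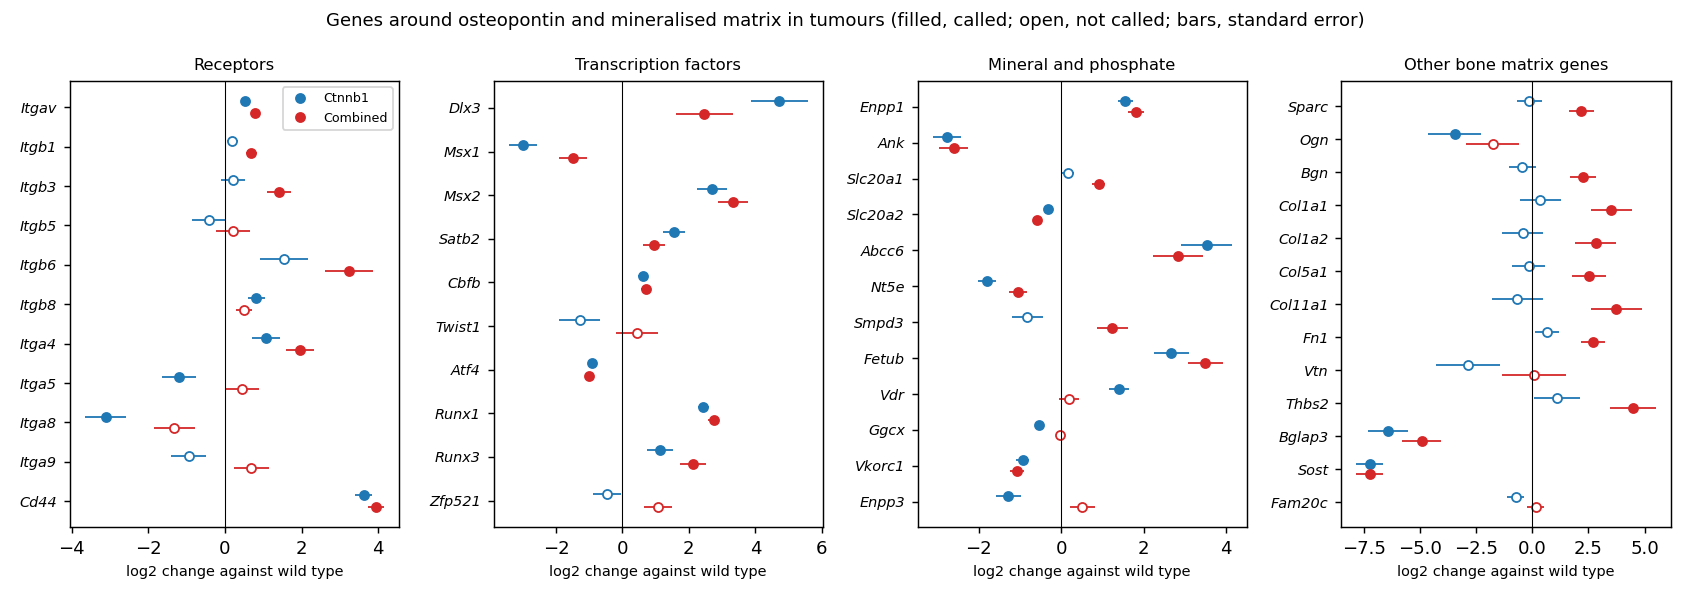
Log2 changes against wild type (horizontal axis) of the listed receptors, transcription factors, mineral and phosphate genes and other bone matrix genes in the Ctnnb1 group (blue) and the combined group (red), with standard errors. Filled points are called and open points are not. Cd44 and Runx1 lie to the right and Sost and Bglap3 far to the left in both groups, while Col1a1, Sparc and Bgn are called in the combined group alone; the difference between the groups was not tested.

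In the inducible model the question is whether bone matrix genes differ between tumours under androgen deprivation and mock-treated tumours. Osteopontin showed no separation. Spp1 stood at 16601 and 2458 in mock and at 2442, 18612 and 4820 in ADT libraries, so that the lowest and the highest of the 5 were both ADT libraries (change -0.08, SE 1.21). Removing 1 library moved this change between -1.46 and 1.29.

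Bone sialoprotein was the gene of the set with the widest gap. Ibsp stood at 17 and 2 in mock libraries and at 3896, 230 and 3306 in ADT libraries. All ADT libraries were above both mock libraries, with replicate 2 the nearest (change 7.61, SE 1.58). Dmp1, its neighbour on chromosome 5, stayed low, at 61 and 11 in mock and 38, 6 and 15 in ADT libraries, and the groups overlapped. Of the other genes of that stretch Dspp lay between 0 and 2 and Mepe was listed at 0 throughout.

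Among the factors, Runx2 was at 873 and 1218 in mock and 2590, 1696 and 1752 in ADT libraries, without overlap (change 0.94, SE 0.27). Sp7, which acts after Runx2 in osteoblasts, was at 8 and 6 in mock and at 4767, 32 and 30 in ADT libraries. ADT replicate 1 thus held 149 times the value of the next library, and the other 2 ADT libraries were also above both mock libraries. The change was 4.42 (SE 2.50), and 2.01 (SE 0.41) without ADT replicate 1.

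Alpl followed the same library. It was at 274 and 392 in mock and 9208, 543 and 627 in ADT libraries, and ADT replicate 1 stood 14.7-fold above the next. All 3 ADT libraries were above mock (change 2.16, SE 1.38), and without replicate 1 the change was 0.83 (SE 0.26). Relative to the wild-type comparisons, where Alpl was lower in tumours, these libraries were scaled separately and no level is set across.

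The Gla protein genes differed from each other. Bglap was at 1 and 11 in mock and 84, 22 and 119 in ADT libraries (change 3.65, SE 1.14), without overlap and at low values. Its copy Bglap2 was at 10 and 43 against 165, 174 and 774, while Bglap3 was at 83 and 426 against 389, 242 and 338 and overlapped. Mgp was abundant in every library, at 16303 and 10089 in mock and 20858, 11484 and 17051 in ADT libraries (change 0.32, SE 0.35), with overlap.

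**Figure D4:**
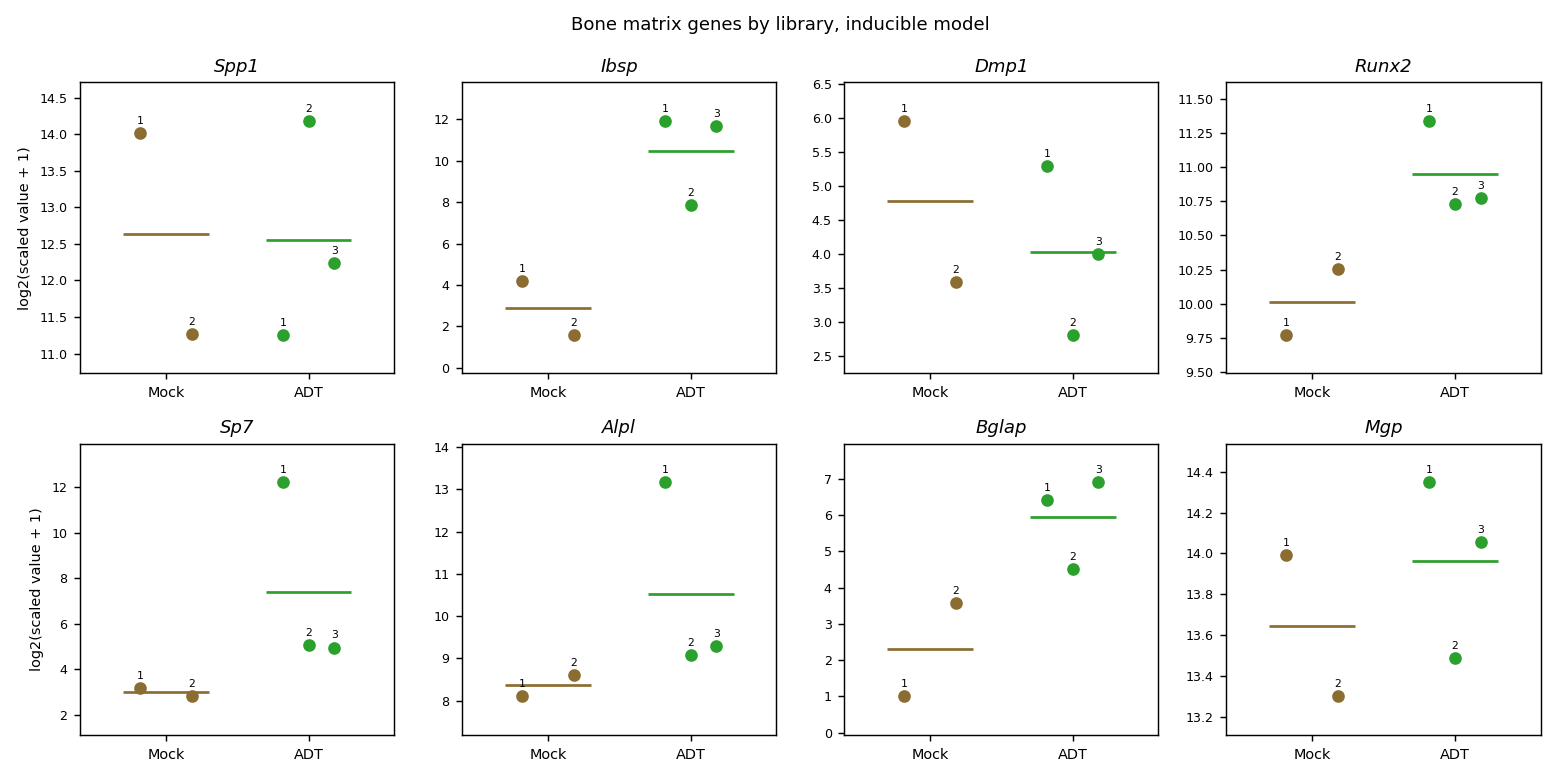
Values of the 8 genes in the 2 mock and 3 ADT libraries of the inducible model, as log2(scaled value + 1) on the vertical axis. Points are libraries with their replicate numbers and lines are group means. ADT replicate 1 stands far above all others for Sp7 and Alpl, all ADT points lie above mock for Ibsp, Runx2, Sp7, Alpl and Bglap, and the groups overlap for Spp1, Dmp1 and Mgp.

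limma called 0 of the 8 genes, where it called 0.00859% of 23289 genes (2 genes), so none of these differences passed the test across all genes. At an unadjusted p under 0.05 stood 3 of the 8, where 16.2% of all genes did. The groups did not overlap for 5 of the 8, where 33.2% of all genes did not. All 5 were higher under ADT and 0 lower, where 16.4% of all genes were higher and 16.8% lower without overlap. The treatment was in view when the genes were chosen, and nothing is read from these counts.

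The libraries differed in which gene they held most of. ADT replicate 1 had the highest value of 5 of the 8 genes (Ibsp, Runx2, Sp7, Alpl and Mgp) and the lowest of Spp1. How often that library was highest over all genes was not computed. ADT replicate 2 was highest for Spp1, ADT replicate 3 for Bglap and mock replicate 1 for Dmp1. Per kilobase of exon Mgp, at 8500 to 17600 scaled reads, and Spp1, at 1480 to 11300, overlapped over the 5 libraries, and Alpl reached at most 2280. Ibsp reached 1880 per kilobase and Sp7 1400 in ADT libraries, against at most 8.22 and 2.35 in mock libraries.

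Over the lists above ADT replicate 1 held the highest value of the 5 libraries for 5 of 18 bone matrix genes, as many as mock replicate 1 and ADT replicate 3, and for 7 of 14 mineral and phosphate genes. It did so for 7 of 12 transcription factors, 2 of 11 receptors, 1 of 12 cartilage, 1 of 11 osteoclast-related and 0 of 8 cleavage and cross-linking genes. Mock replicate 1 was highest for 7 of 11 receptors and 7 of 12 cartilage genes. The share of all genes highest in ADT replicate 1 was not computed. Singled out after their values were seen, Phospho1, a phosphatase of matrix vesicles, was at 200 there against 22 to 40 in the other 4 libraries, and Omd, the matrix proteoglycan osteomodulin, was at 328 against 4 to 16. The opposite held for Ogn, the matrix proteoglycan osteoglycin, at 243 there against 398 to 1438, and for Phex, at 1 against 5 to 8. Tnfrsf11b was at 19629 there against 1128 to 4749. The fibroblast marker Pdgfra was at 19900 against 856 to 3423, and the 8 fibroblast markers summed to 224893 there, between mock replicate 1 (289848) and the other 3 libraries (54359 to 119337). Luminal epithelial markers summed to 61310 in that library, 57293 and 78245 in the other ADT libraries and 106261 and 132236 in mock libraries. Pbsn was near 0 in every ADT library, at 0, 1 and 5, against 2533 and 2475 in mock libraries. The macrophage sum was 25037 to 44526 under ADT and 34367 and 106988 with mock treatment, and the part of any of these cell types in the values was not tested.

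Among these lists limma called 0 genes in each of the 7 under ADT. At an unadjusted p under 0.05 were 1 of 18 tested bone matrix genes, 4 of 12 transcription factors, 5 of 14 mineral and phosphate genes, 1 of 11 receptors, 5 of 8 cleavage and cross-linking genes, 1 of 12 cartilage genes and 2 of 11 osteoclast-related genes, where 16.2% of all genes were. Enpp3, an ectonucleotidase, stood at 921 and 884 in mock against 188, 240 and 228 in ADT libraries (change -2.05, SE 0.20, limma adjusted p 0.0804). Enpp1 was at 3636 and 3368 against 1752, 1096 and 752 (change -1.63, SE 0.38, limma adjusted p 0.183). The homeobox gene Dlx3 was at 43 and 423 against 1837, 3223 and 2956 (change 4.25, SE 1.01, limma adjusted p 0.187). Mmp7, a protease that cuts osteopontin, was at 111837 and 83922 against 1353, 7497 and 3354 (change -4.90, SE 0.75, limma adjusted p 0.122).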

How the data were processed

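The labels' protocols give RNA of integrity number above 7.3, sequenced by BGI as paired reads of 90 nucleotides on a HiSeq 2000. The genome build was GRCm38.p3, and the tools named were DESeq2 1.14.1 (in R 3.2.3), HTSeq 0.6.0, TopHat2 2.1.0 with Bowtie2 2.2.6.0, and FastQC 0.11.4, per the submitters' processing notes. The role and settings of each tool are not given in the sources used here. The deposited values were treated as a score: whole numbers that, as judged from the values, are gene counts divided by a size factor and rounded by the authors, with median ratios of 0.977 to 1.01 within each set of files. The protocols give at least 6 Gb per sample, but the depth of each library cannot be read from these values. No interval for counting error is given.

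Features without an Entrez number (631), with an Entrez number given to more than 1 feature (118 numbers) or repeating another's values (389) were left out of the first set, which kept 13905 genes. In the inducible set 3668 repeated identifiers were dropped and 39179 genes kept. Genes with a value of at least 1 in 3 of 9 or 2 of 5 libraries were tested with limma 3.58.1 in R 4.3.3 on log2(value + 1), with a trend in the prior variance and Benjamini-Hochberg adjustment over all genes, and called at an adjusted p under 0.05. SE is the moderated standard error. The 9 libraries of wild type and the 2 tumour groups were fitted together, because they share 1 set of files, and the 5 inducible libraries alone. A further genotype group of 3 libraries entered 1 alternative fit and is not reported here, nor is a comparison of the 2 tumour groups. Exon lengths are unions of GENCODE M21 exons. The test was tried on simulated data. Python 3.11.15, pandas 2.3.3 and matplotlib 3.10.9 made tables and figures.

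The 8 genes and the lists were chosen with earlier results of these data known. From each of 7 lists the rule admits up to 4 called genes with the smallest adjusted p, or the 2 smallest where none is called, and the text names some of these. Col1a1, Sparc, Bgn, Bglap2 and Bglap3 under ADT, Dspp, Phospho1, Omd, Ogn and Phex under ADT, Tnfrsf11b in ADT replicate 1 and the marker Pdgfra were named after their values were seen. Marker lists covered macrophages, fibroblasts, smooth muscle and pericytes, endothelium, luminal and basal epithelium, T cells and osteocytes.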

Additional observations from a re-analysis of the deposited data

How the results depend on the processing

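Of 224 changes of the 8 genes recomputed with another setting or without 1 library, 6 had another sign, all under ADT: Spp1 without mock replicate 1 (1.29), without ADT replicate 1 (0.57), without ADT replicate 3 (0.08) and with the replicate block (0.08), Dmp1 without mock replicate 1 (0.45), and Mgp without mock replicate 2 (-0.03). With libraries scaled to equal totals the all-gene median was 0.49 for Ctnnb1 and 0.50 for combined tumours, and the share of calls that were higher went from 49.4% to 78.9% and from 48.9% to 81.9%. It took the change of Runx2 to 1.88 and 2.75, that of Alpl in the combined group to -1.23, and the Ctnnb1 medians of the bone matrix and mineral lists from -0.44 and -0.42 to 0.05 and 0.07. The number of genes called in these 2 comparisons stayed within 1.5 times under every setting. Under ADT limma called 2 genes, 7 with a pseudocount of 5, 172 without a filter, 59 at a mean of at least 20, 48 with equal totals, 29 with a robust prior variance, 0 without a trend in the prior variance, 0 with the replicate block and 0 to 0 without 1 library. Same-numbered mock and ADT libraries had correlations of deviations of 0.22 and 0.12 over 23289 genes, and mock replicate 2 had 0.14 with ADT replicate 3. The deviations of 2 mock libraries are mirror images, so every ADT library correlates positively with 1 of them, and these values cannot show a pairing. The labels do not say that a number marks a shared animal or day. Refits with a lone mock library assume that it varies like the ADT group. Of the pathway genes named by the rule, those that lost a call under some setting were Ogn, Acp5, Tnfrsf11a, Plau, Ctsd and Ctsk, and Enpp3 gained 1 under ADT without a filter. The cause of these shifts was not tested.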

Other observations

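ADT replicate 1 was set apart by more than bone genes. By a rule chosen after its values were seen (a value of at least 500 and at least 10 times that of every other library of the inducible model), 35 genes stood out in it, against 18 and 9 in the other ADT libraries and 7 and 13 in the mock libraries. Beside Sp7 and Alpl they included Creb3l1, a transcription factor of collagen-secreting cells (10822 against at most 514), and Wnt pathway genes: the R-spondin Rspo4 (2572 against at most 6), the inhibitor Dkk1 (1265 against 31), the ligand Wnt10b (1574 against 111) and the R-spondin receptor Lgr6 (2396 against 182). It also held the keratin gene Krt42 at 13236 against 727. Of the genes set apart in ADT replicate 2, the prohormone convertase Pcsk2 stood at 4224 against 16 and the alpha-fetoprotein gene Afp at 4854 against 103. No test was made of these genes, which were chosen by 1 library each.

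T cell markers, 4 of 6 listed in the first set of files, summed to 93 to 136 in wild type, 343 to 465 in the Ctnnb1 group and 186 to 1101 in the combined group. Endothelial markers summed to 4169 to 5667, 4904 to 5380 and 5835 to 12381, and basal epithelial markers to 6153 to 11931, 879 to 6941 and 1101 to 13314.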
